A study of Mus musculus with 6 samples.

Results

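The Ikaros family comprises 5 zinc finger transcription factor genes, and their loci were examined in the chromatin accessibility map of a mouse pre-T cell line, Beko, with a constitutively active Notch pathway. The members were Ikzf1 (Ikaros), Ikzf2 (Helios), Ikzf3 (Aiolos), Ikzf4 (Eos) and Ikzf5 (Pegasus). For each gene, every accessible interval (peak) that overlapped the gene body or the 50 kb to either side of it was taken, with the gene models of GENCODE vM1 on the mm9 build. This gave 43 of the 32527 peaks of the list and 5 of 22367 protein-coding genes. A start is the 5′ end of an annotated transcript, and a peak within 1 kb of a start of the gene itself is called an own-start peak. A peak more than 1 kb from every annotated start of any gene is called distal.

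ATAC-Seq, in which a transposase inserts adapters into open chromatin, had been performed on 6 libraries of this 1 cell line. For 3 of them the cells had received DAPT over 24 h, at 10 mg/ml according to the labels, while the study's methods give the unit as µg/ml, and for 3 they had received DMSO over the same time. DAPT is an inhibitor of γ-secretase (GSI), the protease that frees the part of Notch which enters the nucleus and joins RBPJ on DNA. The deposited list merges all 6 libraries, so that no value below has a replicate error. No test between samples could be made, and GSI was not compared with DMSO. A peak was kept if found in 3 of the 6 libraries, so a peak below may come from DMSO or GSI cells alone. Peaks carry no height, read depth was not used, and a locus without a peak is one where none was kept, which does not show that it is closed.

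Ikaros proteins bind DNA through N-terminal zinc fingers and pair with each other through C-terminal ones. Most of them recognise a GGGAA core, which is also contained in the canonical RBPJ motif TGGGAA. Members of the family recruit the repressor complexes NuRD, SIN3 and CtBP. Ikaros is required for lymphoid development, restrains Notch target genes in early T cells and is frequently lost in mouse T-cell leukemia. Helios and Eos are best known from T cells, Eos as a partner of FOXP3 in regulatory T cells, Aiolos from maturing lymphocytes, and Pegasus is the most divergent and most widely expressed member.

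The sequences at the starts are shown first, because the accessibility of these starts is the main comparison below. Each is 200 bases long, taken from the mm9 genome in the direction of transcription of the gene, with 100 bases before the start. Capitals mark any of 7 motif cores on either strand. RBPJ and most Ikaros proteins share the core TGGGAA, and RUNX factors recognise TGTGGT. The basic helix-loop-helix proteins of T cells recognise the E-box CAGCTG. SP family factors recognise GGGCGG, and the many members of the ETS class recognise CCGGAA. The zinc finger factors of the GATA class recognise AGATAA, and the Wnt pathway factors TCF7 and LEF1 recognise CTTTGA. None of these cores contains another. The 4 Ikzf1 windows, named by the distance of their start from the most upstream one, lie on the plus strand at chr11:11584906-11585105, chr11:11585828-11586027, chr11:11590165-11590364 and chr11:11600122-11600321, and the first 3 of them lie within peaks.
Ikzf1, most upstream start: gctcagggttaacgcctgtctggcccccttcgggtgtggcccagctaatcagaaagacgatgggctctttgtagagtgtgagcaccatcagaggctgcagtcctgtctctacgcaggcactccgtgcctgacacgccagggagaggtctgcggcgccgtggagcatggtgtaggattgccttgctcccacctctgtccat
Ikzf1, start at 0.922 kb: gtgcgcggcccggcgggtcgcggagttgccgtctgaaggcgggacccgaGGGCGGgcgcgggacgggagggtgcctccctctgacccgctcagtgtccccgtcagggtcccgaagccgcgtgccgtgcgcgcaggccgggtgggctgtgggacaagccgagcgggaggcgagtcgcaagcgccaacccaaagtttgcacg
Ikzf1, start at 5.26 kb: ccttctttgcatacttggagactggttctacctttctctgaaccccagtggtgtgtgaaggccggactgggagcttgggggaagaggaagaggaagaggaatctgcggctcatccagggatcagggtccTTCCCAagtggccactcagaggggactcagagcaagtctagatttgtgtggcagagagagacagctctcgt
Ikzf1, start at 15.2 kb: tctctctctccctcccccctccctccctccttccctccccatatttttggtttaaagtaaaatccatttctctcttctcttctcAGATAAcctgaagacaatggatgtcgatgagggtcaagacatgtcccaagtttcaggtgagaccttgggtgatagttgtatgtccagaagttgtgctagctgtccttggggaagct

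The corresponding windows of the other members lie on the minus strand. That of Ikzf3 (chr11:98407015-98407214) and that of Ikzf5 (chr7:138553936-138554135) lie within peaks, whereas those of Ikzf2 (chr1:69732435-69732634) and Ikzf4 (chr10:128082948-128083147) met none. In the Ikzf4 window the bases before the start are mostly short repeats.
Ikzf3, coding start: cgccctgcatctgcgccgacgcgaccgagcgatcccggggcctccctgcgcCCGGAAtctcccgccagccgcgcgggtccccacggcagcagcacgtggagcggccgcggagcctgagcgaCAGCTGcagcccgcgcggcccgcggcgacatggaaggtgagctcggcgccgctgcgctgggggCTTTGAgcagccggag
Ikzf5, most upstream start: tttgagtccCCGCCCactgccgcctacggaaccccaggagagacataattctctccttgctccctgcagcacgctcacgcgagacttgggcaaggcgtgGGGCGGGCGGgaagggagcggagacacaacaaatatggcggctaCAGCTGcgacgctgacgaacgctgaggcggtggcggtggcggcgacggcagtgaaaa
Ikzf2, only annotated start: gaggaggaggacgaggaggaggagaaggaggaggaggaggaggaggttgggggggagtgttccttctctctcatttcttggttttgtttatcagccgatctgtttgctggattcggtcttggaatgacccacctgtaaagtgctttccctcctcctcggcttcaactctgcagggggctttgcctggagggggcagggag
Ikzf4, most upstream start: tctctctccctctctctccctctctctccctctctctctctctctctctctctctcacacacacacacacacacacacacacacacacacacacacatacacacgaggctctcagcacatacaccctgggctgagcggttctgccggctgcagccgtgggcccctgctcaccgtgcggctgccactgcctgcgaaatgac

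Finally, the central 200 bases are given for 3 distal peaks that the values below turn on. These are the peak nearest to the Ikzf2 start (chr1:69733954-69734153, minus strand), the peak nearest to an Ikzf4 start (chr10:128073950-128074149, minus strand), and the widest intronic peak of Ikzf1 (chr11:11625798-11625997, plus strand).
Ikzf2, nearest peak: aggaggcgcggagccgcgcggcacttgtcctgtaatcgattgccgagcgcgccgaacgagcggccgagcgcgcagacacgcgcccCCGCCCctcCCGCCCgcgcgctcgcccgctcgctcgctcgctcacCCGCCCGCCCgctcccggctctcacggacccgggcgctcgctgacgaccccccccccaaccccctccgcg
Ikzf4, nearest peak: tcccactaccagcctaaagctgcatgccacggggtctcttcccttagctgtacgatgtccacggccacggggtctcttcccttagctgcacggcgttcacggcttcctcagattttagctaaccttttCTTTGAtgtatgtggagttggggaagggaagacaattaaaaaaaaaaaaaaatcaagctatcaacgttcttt
Ikzf1, widest intronic peak: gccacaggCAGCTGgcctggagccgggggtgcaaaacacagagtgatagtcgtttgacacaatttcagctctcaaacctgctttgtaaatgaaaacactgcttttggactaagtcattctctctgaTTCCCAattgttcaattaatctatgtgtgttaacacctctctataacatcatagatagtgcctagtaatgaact

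The cell type was checked at its defining genes. Of 14 progenitor T-cell genes found in the annotation, 13 had an own-start peak, against 47.0% of all protein-coding genes. The exception, Cd3d, had its nearest peak 1119 bp from a start. The B-cell genes Cd79a, Pax5, Ebf1 and Ms4a1 had no own-start peak, and neither did any of 5 myeloid genes (Csf1r, Itgam, Cd14, Lyz2 and Mpo). Among genes of other cells, the erythroid factors Gata1 and Klf1 and the astrocyte gene Gfap did, whereas Hbb-b1, Alb, Krt14, Cdh1 and Myod1 did not. The nearest peak of Klf1 lay 772 bp from its start, so that calls such as those of Klf1 and Cd3d depend on the limit of 1 kb.

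Ikzf1, Ikzf3 and Ikzf5 had a peak at an own start, and Ikzf2 and Ikzf4 had none. This is 3 of 5 members, against 47.0% of protein-coding genes (95% Wilson interval 46.3 to 47.6%), so the count itself does not set the family apart. In all 3 genes a start lay inside the peak, which was the case for 44.0% of protein-coding genes. The members differ in how many starts the annotation gives them, and genes with more starts more often had an own-start peak. The share was 28.8% of 9844 genes with 1 start, as Ikzf2 has, 59.7% of genes with 4 (Ikzf3), 68.7% of genes with 5 (Ikzf5) and 76.3% of 527 genes with 8, as Ikzf1 and Ikzf4 have. Ikzf1 and Ikzf4 thus have equally many annotated starts but 3 and 0 own-start peaks. The 8 starts of Ikzf4 lie within 2.28 kb of each other, and those of Ikzf1 spread over 15.2 kb.

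**Figure D1:**
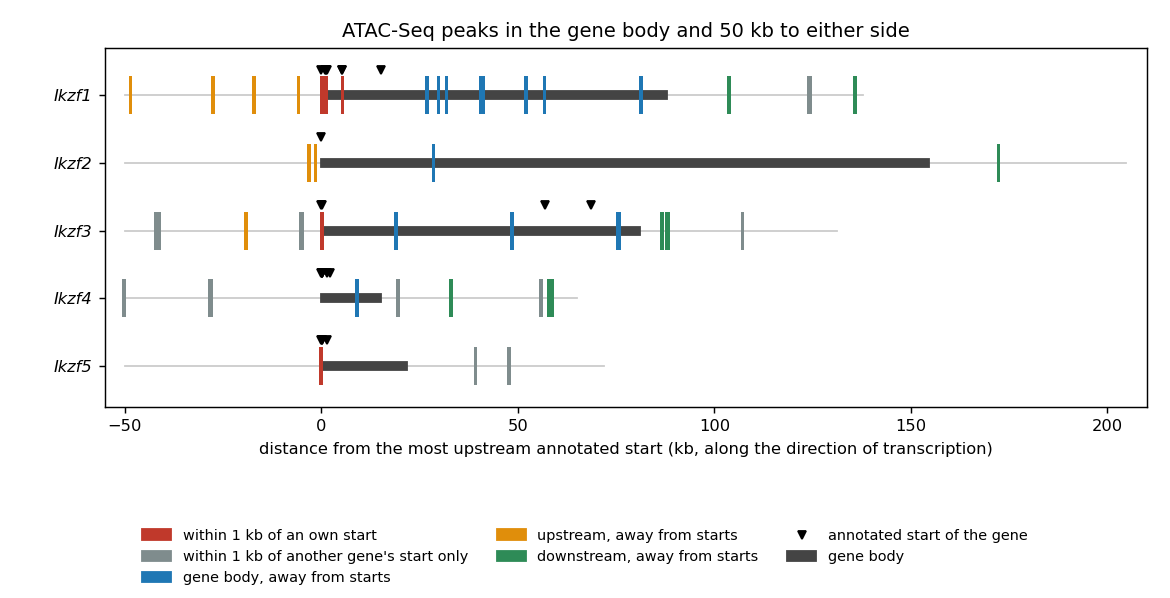
Peaks in the windows of the 5 genes, drawn along the distance in kb from the most upstream annotated start in the direction of transcription. Coloured bars are peaks (narrow ones widened to be visible), dark bars gene bodies and triangles annotated starts. Ikzf1 carries 17 peaks with 3 at its own starts, and Ikzf2 and Ikzf4 carry none within 1 kb of their own starts.

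Ikzf1 lies on chromosome 11 at 11585006 to 11672929 (plus strand, 87.9 kb) and has 12 transcripts with 8 distinct starts. Of these starts, 7 lay inside a peak and fell into 3 separate peaks. Only 0.818% of protein-coding genes (183 genes, 95% Wilson interval 0.708 to 0.945%) had 3 or more own-start peaks. This share covers genes with any number of starts, 9844 of them with 1, and was not taken among genes with 8. With peaks within 1 kb joined, the window held 16 peaks, because 2 own-start peaks of Ikzf1 are 193 bp apart. The most upstream own-start peak (11584690 to 11585588, 899 bp) held the most upstream start, shared by 2 transcripts. It reached 316 bp upstream and 582 bp downstream of that start. A start of the antisense long non-coding RNA gene Gm11999 lay in the same peak. After a gap of 193 bp followed a peak of 750 bp (11585782 to 11586531), which held the starts of 7 transcripts at 4 positions. The position with most transcripts, shared by 4 of them at 0.922 kb, lay 146 bp from the upstream edge of that peak. The third own-start peak (11589985 to 11590713, 729 bp) lay in intron 1 of the longest coding transcript and held the starts at 5.26 and 5.33 kb, each of 1 transcript.

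The remaining start, at 15.2 kb, falls inside exon 2 of the longest coding transcript. Its nearest peak was 9.51 kb away, and it lies in an interval of 20953 bp without a peak. The same 7 of 8 starts were counted at every distance from 0 to 5 kb.

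**Figure D2:**
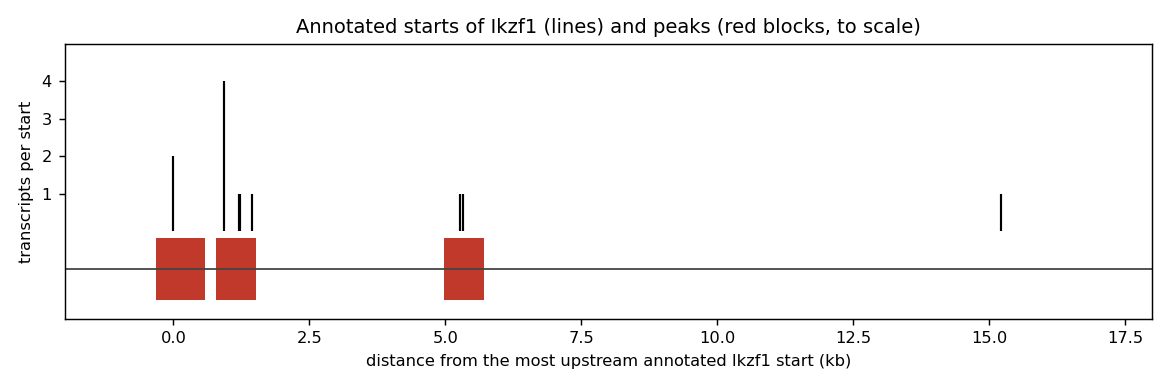
Annotated starts of Ikzf1 (vertical lines, height in transcripts per start) and peaks (red blocks, to scale) against the distance in kb from the most upstream start. A pair of peaks separated by 193 bp and another one downstream cover 7 of the 8 starts, and the start at 15.2 kb has no peak.

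The alternative starts of Ikzf1 differed in base composition. Around the start at 0.922 kb the 200 bases shown had a GC content of 74.5% and an observed to expected CpG ratio of 1.03, with a GGGCGG core. Around the most upstream start these values were 60.5% and 0.492, and around the start at 5.26 kb they were 55.0% and 0.207. The window at 15.2 kb, without a peak, had 47.5% and 0.0916. A sequence is called CpG-rich here at a GC content of at least 50% and a ratio of at least 0.6, which 43.9% of 69960 start windows of protein-coding genes met. Of the 4 windows only that at 0.922 kb was CpG-rich. Over the whole peaks the ratios were 0.606, 0.959 and 0.207 in order, so that the first peak passed the limit narrowly and the third did not. The window at 5.26 kb held TGGGAA on the opposite strand, and 15.7% of all start windows held this core on either strand.

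Away from starts, Ikzf1 had 13 distal peaks. This count exceeded that of 99.6% of protein-coding genes, and as 6.92 distal peaks per 100 kb it exceeded 99.2% of them. There were 4 upstream of the gene, within the body of Gm11999 except for the farthest, at 5478, 16691, 27058 and 48215 bp from the nearest own start and 769, 896, 982 and 645 bp wide. In the gene body 7 distal peaks were all intronic, 6 of them in intron 3 of the longest coding transcript, which spans 40.4 kb. In order, these were 450, 306, 635, 1349, 539 and 373 bp wide. The widest (11625223 to 11626571) was also the widest distal peak of the whole family and held 3 TGGGAA and 3 CAGCTG sites. Another peak of 363 bp lay in intron 7, after a gap of 24.1 kb. The 2 downstream peaks (606 and 875 bp) were centred inside the neighbouring genes Fignl1 and Ddc.

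Ikzf3, on the same chromosome (98326216 to 98407345, minus strand, 81.1 kb), had 11 peaks. Its own-start peak (98406800 to 98407492, 693 bp) held the starts of the coding transcript and of a transcript with a retained intron. The other 2 annotated starts, of non-coding transcripts within the gene, had their nearest peaks at 6.38 and 8.31 kb. In contrast to Ikzf1, only 6 of the 11 peaks were distal, and 4 lay within 1 kb of starts of other genes. Intronic peaks were found in intron 1 (944 bp), intron 3 (390 bp) and intron 7 (1118 bp) of the coding transcript. Downstream of the gene, peaks of 1303 bp (98318659 to 98319961) and 938 bp were separated by 214 bp. The former held 10 GGGCGG sites and was CpG-rich, as were 2.94% of all distal peaks.

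Ikzf5, on chromosome 7 (138532166 to 138554035, minus strand, 21.9 kb), had 3 peaks and all 3 were at starts. The own-start peak (138553554 to 138554581, 1028 bp) held 4 of its 5 starts, and the fifth was 960 bp away. The same peak also held a start of Acadsb, which is transcribed in the opposite direction and encodes a mitochondrial acyl-CoA dehydrogenase. It was the only own-start peak of the family without TGGGAA, and it held 7 GGGCGG sites. No distal peak was found in the window, whereas 64.0% of protein-coding genes had at least 1.

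Ikzf2, on chromosome 1 (69577788 to 69732534, minus strand), is the longest member at 155 kb and had 4 peaks, all distal. The annotation gives it 1 transcript. The peak nearest to its start (69733632 to 69734475, 844 bp) lay 1098 bp upstream, just outside the limit of 1 kb, and a narrow peak of 285 bp followed at 3012 bp. Within 2 kb of a start the count of members with a peak was therefore 4, against 49.0% of protein-coding genes. This nearest peak was CpG-rich, with a GC content of 67.4%, a CpG ratio of 1.04 and 7 GGGCGG sites, 4 of them in the 200 bases shown. The annotated start window itself had 56.5% and 0.281 and held none of the 7 cores. The gene body contained a single peak (823 bp) in intron 3. Between this peak and the one downstream of the gene (707 bp) 143 kb held no peak, which was the longest such interval in the windows of the family, the next being 38.3 kb at Ikzf5.

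Ikzf4, on chromosome 10 (128067899 to 128083047, minus strand, 15.1 kb), had 8 peaks but none near its starts. The nearest one (128073649 to 128074449, 801 bp) was centred in intron 5, at 6316 bp from the most downstream start and 8598 bp from the most upstream one. No distance up to 5 kb gave Ikzf4 an own-start peak. Of its 8 peaks, 4 lay within 1 kb of starts of Erbb3, Rps26, Suox and Rab5b, and 2 of the 4 distal peaks were centred inside Erbb3. Only 1 of the 8 peaks overlapped the gene body.

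When the windows were scaled to length, the order of peak density was Ikzf1 (9.05 peaks per 100 kb), Ikzf4 (6.95), Ikzf3 (6.07), Ikzf5 (2.46) and Ikzf2 (1.57). The median of protein-coding genes was 2.37, with quartiles at 0.569 and 4.71. Ikzf1 lay above 96.5% of these genes, Ikzf4 above 90.2%, Ikzf3 above 85.5%, Ikzf5 above 50.9% and Ikzf2 above 39.2%. With distal peaks only, the densities were 6.92 for Ikzf1, 3.47 for Ikzf4, 3.31 for Ikzf3, 1.57 for Ikzf2 and 0 for Ikzf5, against a median of 0.931. With 100 kb to either side Ikzf3 was the densest (7.11) and Ikzf1 followed (6.25). Since the list has no replicate error, neighbours in this order, such as Ikzf3 and Ikzf4, cannot be told apart.

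**Figure D3:**
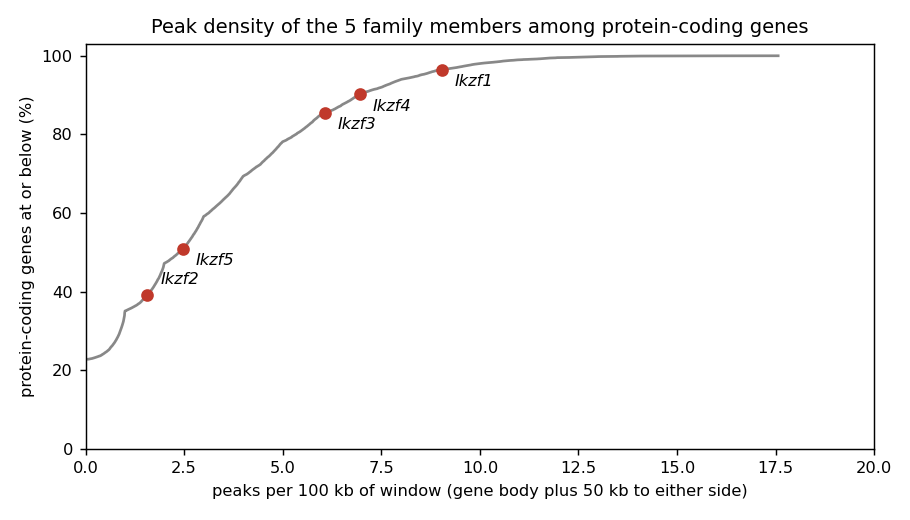
Cumulative share of protein-coding genes (y axis, %) by peaks per 100 kb of the gene body plus 50 kb to either side (x axis), with the 5 members as red points. Ikzf1 at 9.05 lies above 96.5% of genes, and Ikzf2 at 1.57 above 39.2%.

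Peak widths were compared with the list. The 27 distal peaks of the family ranged from 285 to 1349 bp with a median of 707 bp, and 20 of them were wider than the median of all distal peaks (465 bp). Within intron 3 of Ikzf1, 3 of the 6 peaks were narrower than that median, whereas the 4 upstream peaks of Ikzf1 were all wider. The 16 peaks within 1 kb of any start had a median of 932 bp, against 855 bp in the list. Own-start peaks measured 899, 750 and 729 bp at Ikzf1, 693 bp at Ikzf3 and 1028 bp at Ikzf5, so that 2 of the 5 exceeded this median.

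**Figure D4:**
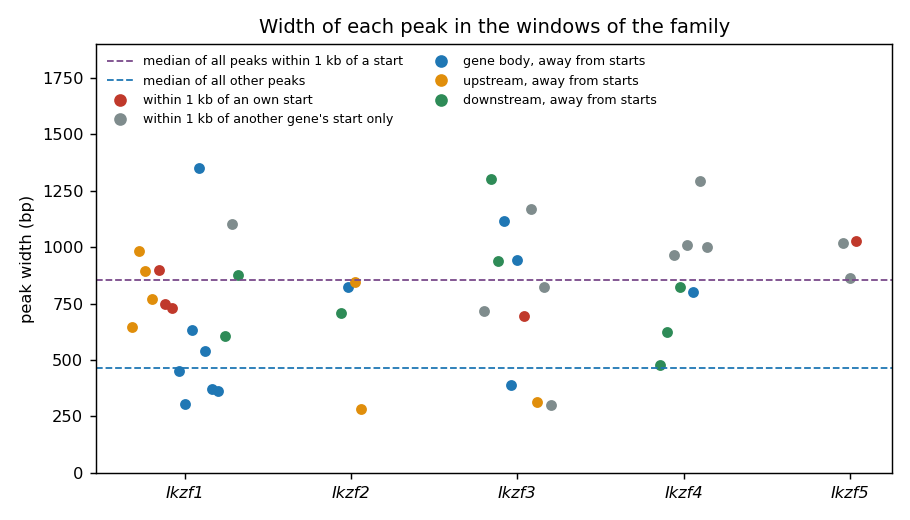
Width in bp of each of the 43 peaks by gene, coloured by position, with dashed lines at the medians of all peaks within 1 kb of a start (855 bp) and of all other peaks (465 bp). The upstream peaks of Ikzf1 lie above the lower line, and its intronic peaks spread to both sides of it.

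TGGGAA was searched in whole peaks on both strands, since it is shared by RBPJ and most members of the Ikaros family. It was found in 31 of the 43 peaks (72.1%, 95% Wilson interval 57.3 to 83.3%), against 42.5% of the list (42.0 to 43.0%). Among peaks within 1 kb of a start it was found in 13 of 16, against 48.4% of such peaks, and among distal peaks in 18 of 27, against 39.2%. By gene, it was held by 12 of 17 peaks at Ikzf1, 8 of 11 at Ikzf3, 7 of 8 at Ikzf4, 2 of 4 at Ikzf2 and 2 of 3 at Ikzf5. Peak widths of the family and the list differ, as given above. Per kb of peak there were 1.31 sites in the family and 0.893 in the list (1.18 and 0.804 in peaks at starts, 1.41 and 0.972 in distal peaks). In the central 200 bp only, 10 of 43 peaks held the motif (23.3%, against 15.3% of the list), with 5 of 16 among peaks at starts (against 13.4%) and 5 of 27 among distal peaks (against 16.4%). Peaks of 1 locus are not independent, and a match of these letters is not a binding site.

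The other cores were searched in the same way in whole peaks. Among distal peaks, the RUNX core was found in 17 of 27 (63.0%, against 45.5%), the E-box in 13 (48.1%, against 43.9%) and the TCF7 and LEF1 core in 12 (44.4%, against 34.4%). Among the 16 peaks at starts, the RUNX core was found in 5 (31.2%, against 34.1%), the E-box in 9 (56.2%, against 40.5%) and the TCF7 and LEF1 core in 7 (43.8%, against 31.0%). The SP core was found in 6 of the distal peaks (22.2%, against 17.9%) and in 14 of the peaks at starts (87.5%, against 76.6%). The ETS core was found in 8 of the peaks at starts (against 46.1%) and in 2 of the distal ones (7.41%, against 9.59%). The GATA core was found in 4 of the peaks at starts (against 16.5%) and in 8 of the distal ones (29.6%, against 22.3%). In the central 200 bp of peaks at starts the ETS core was found in 6 of 16, against 18.7% of the list. There the SP core was found in 8 (against 49.2%) and the E-box in 3 (13.2%). RUNX, TCF7 and LEF1, and GATA cores were found in 1 each (9.55%, 7.04% and 3.10%). In the central 200 bp of distal peaks the RUNX core was found in 8 of 27 (25.6%) and the E-box in 5 (25.6%). The TCF7 and LEF1 core was found in 4 (16.4%), SP and GATA cores in 2 each (9.29% and 8.95%) and the ETS core in 1 (4.51%).

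**Figure D5:**
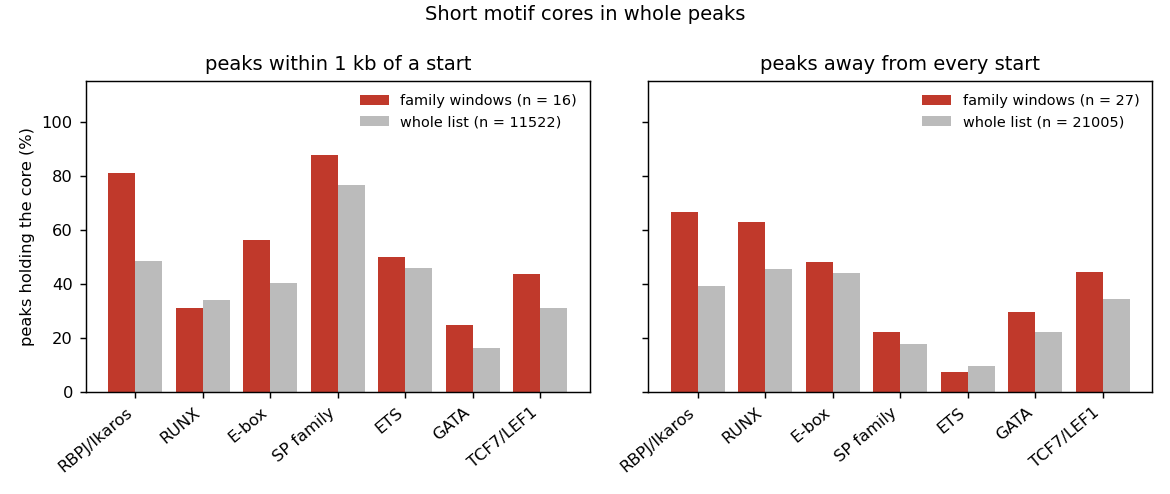
Share of peaks (%) that hold each motif core anywhere in the peak, for the windows of the family (red) and the whole list (grey), in 16 peaks within 1 kb of a start (left) and 27 other peaks (right). The core shared by RBPJ and Ikaros factors stands at 81.2% and 66.7% in the family and at 48.4% and 39.2% in the list.

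Finally, genes linked to the family were examined at their starts. Of 18 genes in a list of repressor partners, 14 had an own-start peak (77.8%). Among them were the NuRD genes Chd4, Mta2, Hdac1 and Rbbp4 and the corepressor genes Sin3a and Ctbp1. The list and this count also take in Crbn, which encodes a ubiquitin ligase receptor and not a repressor. The list genes without an own-start peak were Chd3, Mbd3, Gatad2b and Ctbp2, with nearest peaks at 1389, 6268, 31665 and 11375 bp. Of 15 lymphoid genes known to be regulated by Ikaros proteins, 14 were found in the annotation and 10 of these had an own-start peak (71.4%). These included Notch1, Notch3, Hes1 and Dtx1 of the Notch pathway and the coreceptor genes Cd4 and Cd8a. Dntt, Igll1, Cd79a and Il2ra had none, with nearest peaks at 1671, 1218, 6519 and 5128 bp. Both shares stand beside the 47.0% of all protein-coding genes, which includes genes silent in lymphocytes. Genes with more annotated starts more often had an own-start peak, as given above, and the lists were not matched for this number.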

How the data were processed

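Accessibility had been measured by ATAC-Seq in 6 libraries of Beko cells, 3 treated with GSI and 3 with DMSO, grouped by the titles in the labels. According to the study's methods and the submitters' processing notes, the authors aligned reads to mm9 with HISAT2 2.2.1, removed duplicates with Picard, called peaks per library with MACS2 without input, left out blacklisted regions and kept peaks found in 3 of 6 libraries. A shift of reads to the transposase cut is not given in the sources used here, so peak edges may lie a few bases off. What was deposited is a merged list of peak bounds in bp with a score of 0 throughout.

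Starts, counted from 0 in the file, are printed counted from 1. Gene models and sequence came from GENCODE vM1 and NCBIM37, the same build as mm9. A peak was counted with any overlap of a window. Cores were searched on both strands, and CAGCTG, its own reverse complement, was counted once. Shares have Wilson intervals, which cover counting error only. Python 3.11.15, numpy 2.4.6, scipy 1.17.1 and matplotlib 3.10.9 were used, and the counting was tested on simulated data.

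Members and gene lists were chosen with earlier results of these data known. The genes named were the members, neighbours with a peak at a start, and list genes without an own-start peak, with further list genes as examples chosen after their values were seen. Peaks named were those at own starts, the 5 widest distal ones and the nearest distal one of each member, and others were added after their values were seen. Part of the B-cell list is not reported here. The planned comparison of GSI with DMSO, with its alternatives, was not run. Alternatives were other flanks, distances, minimum widths, joined peaks, centres, coding transcripts, covered bp, the degenerate motif and the central 200 bp.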

Additional observations from a re-analysis of the deposited data

How the results depend on the processing

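No paired analysis was possible because peaks carry no measurement by sample. For the same reason no library was left out, and a stricter threshold was not run, since the score is 0 for every peak.

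Of 85 alternative values, 64 stayed within the limit and 21 moved. The limit was 1.5 times the reported value for counts and densities and its Wilson interval for the TGGGAA share. The gene body alone gave 10, 1, 4, 1 and 1 peaks for Ikzf1 to Ikzf5. Relative to the median coding gene, the density went from 3.81 to 8.70 for Ikzf1 and from 2.93 to 5.05 for Ikzf4. For Ikzf5 it went from 1.04 to 3.50. That median itself went from 2.37 to 1.31 peaks per 100 kb. The share of coding genes with a lower density fell from 96.5 to 85.8% for Ikzf1. This share also fell for Ikzf3 and Ikzf4, and it rose for Ikzf2 and for Ikzf5 (from 50.9 to 67.2%). With 10 kb to either side there were 11 peaks at Ikzf1, 7 at Ikzf3, 2 at Ikzf4 and 1 at Ikzf5, and with 25 kb 3 at Ikzf4. With 100 kb there were 7 at Ikzf2 and 20 at Ikzf3. Without peaks at starts of other genes, 7 were left at Ikzf3, 4 at Ikzf4 and 1 at Ikzf5. Peaks of at least 500 bp gave Ikzf5 a relative density of 1.74. Ikzf5 kept its 3 peaks and 2.46 peaks per 100 kb there, while the median coding gene went from 2.37 to 1.41. TGGGAA was found in 23.3% of family peaks in the central 200 bp, and the degenerate form TGRGAA (R is A or G) in 88.4% of whole family peaks. The share of all peaks of the list with TGRGAA is not given here, so the 88.4% does not set the family apart. These alternatives take in other stretches of sequence, fewer peaks or a looser motif, and densities are also divided by another median. Why single values moved was not tested. Ikzf1 had the highest density in each alternative except 100 kb to either side. Variation among the 6 libraries is not measured here.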

Other observations

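The windows also take in neighbouring genes. Ikzf2 had no other annotated start in its window. Of 2 coding neighbours of Ikzf1, Fignl1 had a peak at a start (1104 bp) and Ddc, which encodes aromatic L-amino acid decarboxylase, had its nearest peak 1750 bp away. At Ikzf3, 3 of 5 coding neighbours had one, namely Ormdl3, Zpbp2 and 1810046J19Rik, while Erbb2 and Grb7 had none within 1 kb. The start peak of Zpbp2, a gene known from sperm, was 1171 bp wide, held 5 GGGCGG sites and lay 4498 bp from an Ikzf3 start. At Ikzf4, 3 of 4 had a peak at a start inside the window (Erbb3, Rps26 and Suox), and at Ikzf5 all 3 did (Acadsb, Pstk and 2310057M21Rik).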
